A study of Mus musculus with 11 samples.

Results

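The 5 genes described here, Ube3a, Snhg14, Snrpn, Ndn and Magel2, lie in the imprinted Snrpn to Ube3a region of mouse chromosome 7. They were chosen by symbol from 32531 genes in the count tables, after earlier results of the same libraries were known. Among these were a difference between replicate numbers and low values of nuclear noncoding RNA, Snhg14 included, in purified RNA. The low values were seen mainly in the purified libraries numbered 1 or against the unbound library. Differences between RNA fractions and between replicate numbers are therefore given as a description, with no p or call for these genes, and the comparisons of treatments were tested over all genes.

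RNA came from adult Glt25d2-TRAP DU9 mice, which carry the ribosomal protein Rpl10a fused to EGFP under regulatory DNA of Glt25d2 (now Colgalt2), which in cortex marks layer 5 pyramidal cells. Antibodies to EGFP pull down tagged ribosomes with the RNA on them, which gives the immunopurified (IP) RNA (TRAP, translating ribosome affinity purification). The mice belonged to a study of intravenous self-administration with short access. The groups were cocaine self-administration IP (3 libraries), yoked control IP (3 libraries), saline self-administration IP (3 libraries), 1 unbound library from the cocaine group (RNA left after the pull-down) and 1 input library from the saline group (RNA before it). All 11 libraries share the DU9 transgene, and no library without it was analysed here. What the yoked mice received, the sex and exact age of the mice and whether a library is 1 animal or a pool go unstated in the sources at hand, so p-values measure only the spread between libraries. The tissue label reads cerebral cortex, but the extraction text speaks of the whole striatum. In the IP libraries, summed levels of 6 cortical excitatory markers were 1010.1 to 1213.3 CPM (counts scaled to a common library size), and those of 8 striatal projection neuron markers 249.5 to 580.6 CPM. Each IP group, the input and the unbound library has its own sequencing lane in the file names, so group or fraction and lane cannot be told apart. Libraries held 20926712 (unbound) to 53862653 gene counts.

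Imprinted genes are read mainly from the copy inherited from 1 parent. In neurons Ube3a is read from the maternal copy, and the long noncoding transcript Snhg14, read from the paternal copy on the opposite strand, runs into Ube3a and silences the paternal copy of it. Snhg14 is also the host of clusters of small nucleolar RNAs, and its transcription begins at Snrpn promoters. Snrpn, Ndn and Magel2 are read from the paternal copy. Loss of maternal UBE3A causes Angelman syndrome in humans, and loss of the paternally read genes causes Prader-Willi syndrome. The counts are per gene and do not separate the parental copies.

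In GENCODE M21 (GRCm38, the assembly of mm10) Ube3a (plus strand) spans bases 59228750 to 59311536 of chromosome 7, and Snhg14 (minus strand) spans 59307924 to 59975759. Their annotated exons share 1803 bases on opposite strands, 8.7% of the exonic bases of Ube3a and 6.9% of those of Snhg14. With other antisense genes, 27.3% of the exonic bases of Ube3a are annotated on the opposite strand too. RefSeq carries Snhg14 over a longer span, from 59272737 to 60450177. Snrpn lies on the minus strand from 59982495 to 60140219, and Snurf, inside it, from 59995449 to 60005049. All 216 annotated exonic bases of Snurf are also exonic in Snrpn, of which they make up 10%. RefSeq carries Snurf from 59982495 to 60005199 and Snrpn from 59982495 to 60450177, both within its span of Snhg14. Ndn (62346569 to 62350262) and Magel2 (62377010 to 62381640) lie on the plus strand and share no exonic base with another annotated gene. The strand setting and annotation used in counting are not stated. Reads of Ube3a and of its antisense partners over shared bases therefore cannot be told apart. It is uncertain too how reads over any bases shared by Snrpn, Snurf and Snhg14 were split or left out.

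Start sites of the genes are printed here because Snhg14 and Snrpn share 1 in RefSeq, Snrpn and Snurf share another, and Ube3a and Ndn have their own. Each window holds 250 bases before the start and 50 after it, 5′ to 3′ on the gene's strand, from RefSeq on GRCm38.p6, and capitals mark GCATGC, a palindrome that reads the same on both strands and was looked for after the sequences had been seen.
Snhg14 and Snrpn, chr7:60450128-60450427, minus strand: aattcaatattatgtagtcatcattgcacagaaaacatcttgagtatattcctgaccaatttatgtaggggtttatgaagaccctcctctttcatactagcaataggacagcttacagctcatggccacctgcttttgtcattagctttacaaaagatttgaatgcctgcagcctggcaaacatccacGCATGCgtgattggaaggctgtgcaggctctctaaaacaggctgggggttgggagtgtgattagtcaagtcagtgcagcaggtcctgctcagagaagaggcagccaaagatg
Snrpn and Snurf, chr7:60005150-60005449, minus strand: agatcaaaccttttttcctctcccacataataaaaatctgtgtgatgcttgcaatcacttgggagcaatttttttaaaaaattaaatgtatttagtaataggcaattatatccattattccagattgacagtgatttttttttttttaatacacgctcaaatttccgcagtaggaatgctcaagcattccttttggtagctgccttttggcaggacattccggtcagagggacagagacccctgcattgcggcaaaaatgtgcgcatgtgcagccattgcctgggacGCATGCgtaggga
Ndn, chr7:62348027-62348326, plus strand: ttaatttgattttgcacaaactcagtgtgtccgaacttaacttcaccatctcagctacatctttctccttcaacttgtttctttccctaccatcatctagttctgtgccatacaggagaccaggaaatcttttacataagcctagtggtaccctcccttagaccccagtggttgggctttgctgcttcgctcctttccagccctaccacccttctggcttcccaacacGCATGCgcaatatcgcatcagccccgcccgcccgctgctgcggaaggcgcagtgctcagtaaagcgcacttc
Ube3a, chr7:59228500-59228799, plus strand: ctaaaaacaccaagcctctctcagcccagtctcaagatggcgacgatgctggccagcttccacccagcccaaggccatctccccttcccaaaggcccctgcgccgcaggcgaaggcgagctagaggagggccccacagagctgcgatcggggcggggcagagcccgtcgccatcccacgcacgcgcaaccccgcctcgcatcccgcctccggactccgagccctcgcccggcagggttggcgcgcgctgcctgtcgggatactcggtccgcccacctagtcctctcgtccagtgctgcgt

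The start shared by Snhg14 and Snrpn holds GCATGC once, with its first base at position −62 from the start (0 is the first transcribed base). The start shared by Snrpn and Snurf holds it at 37, and that of Ndn at −22. Another pair of upstream Snrpn starts hold it at −77 and −70. The Ube3a window and that of Magel2 do not hold these letters. Of 32544 promoter windows of the same length, 7.96% hold GCATGC. The window of Ube3a holds 29 CpG dinucleotides, and 13% of all windows hold as many or more. The window shared by Snhg14 and Snrpn holds 2 (86% of all windows hold as many or more), that shared by Snrpn and Snurf 7, that of Ndn 11 and that of Magel2 10, against a median of 7 over all windows.

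Ube3a, an E3 ubiquitin ligase, was moderately abundant in every library. Levels here are CPM after TMM scaling over the 11 libraries. Ube3a stood at 60.8, 79.7 and 71.1 CPM in cocaine IP, at 76.2, 79.2 and 90.8 CPM in yoked IP, at 110, 100.2 and 88.0 CPM in saline IP, at 160.4 CPM in the cocaine unbound library and at 66.3 CPM in saline input. All 3 cocaine IP libraries were below all 3 saline IP libraries, and the yoked libraries overlapped both groups. How many of all genes separate in this way was not counted, so nothing is read from the separation. The unbound library was the highest of the 11.

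Snhg14, the noncoding host, varied more. It stood at 17.7, 106.8 and 62.9 CPM in cocaine IP, at 26.7, 107.6 and 137.3 CPM in yoked IP, at 31.3, 112.4 and 79.4 CPM in saline IP, at 266.4 CPM in unbound RNA and at 85.7 CPM in input RNA. The library numbered 1 was the lowest of its group each time, and the 3 groups overlapped. Ipw, a noncoding RNA that RefSeq places within the span of Snhg14 (59619158 to 59678878), stood at 1.97, 58.1 and 28.1 CPM in cocaine IP, at 3.77, 68.1 and 56.9 CPM in yoked IP, at 1.71, 67 and 64.2 CPM in saline IP, at 7.81 CPM in unbound RNA and at 56.7 CPM in input RNA. Ipw was thus low in the libraries numbered 1, as Snhg14 was, but also low in the unbound library, in which Snhg14 was highest.

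Small nucleolar RNAs carried in Snhg14 had few counts, with 1 to 19 counts of Snord64 and 0 to 1 count of Snord116 per library. Of 7 listed small nucleolar RNAs of the region, only these 2 have an entry in the count tables, so the others were not measured. Reads aligned to several places are not in the counts, so few counts need not mean low abundance.

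Snrpn, which encodes SmN, a neuronal protein of the splicing machinery, had few counts, from 12 in cocaine IP replicate 3 (95% Poisson interval 6.2 to 21, counting error only) to 54 in saline IP replicate 1 and the unbound library (40.6 to 70.5). Its levels were 1.07, 0.875 and 0.318 CPM in cocaine IP, 1.16, 0.946 and 0.694 CPM in yoked IP, 1.05, 0.782 and 0.976 CPM in saline IP, 2.57 CPM in unbound RNA and 0.682 CPM in input RNA. The IP groups overlapped, and the unbound library was the highest. Snurf, the small open reading frame upstream of SmN in the same transcript, was counted 15.9, 8.52 and 8.82 CPM in cocaine IP, 11.4, 9.08 and 10.7 CPM in yoked IP, 15, 8.01 and 12.7 CPM in saline IP, 9.76 CPM in unbound RNA and 11.3 CPM in input RNA. Reads that align equally to Snrpn and to its near copy Snrpb are not in the counts, and how many there were is not recorded per gene. Per library, Snrpn had 0.036 to 0.104 counts for each Snurf count in IP RNA, 0.263 in unbound RNA and 0.0605 in input RNA. The share of reads that overlapped several genes was also highest in the unbound library, at 7.34%, against 1.56% to 1.91% in the other 10; its part in the Snrpn level was not tested.

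Ndn and Magel2 encode necdin and a second protein of the MAGE family. Ndn, a growth suppressor of postmitotic neurons, stood at 189.6, 100.8 and 104.8 CPM in cocaine IP, at 111.4, 97.6 and 92.7 CPM in yoked IP, at 121.7, 103.2 and 92.3 CPM in saline IP, at 70.7 CPM in unbound RNA and at 97.3 CPM in input RNA. Cocaine IP replicate 1 stood apart from the other 8 IP libraries, which lay between 92.3 and 121.7 CPM. Magel2, which acts with the ubiquitin ligase Trim27 in endosomal recycling, had 19 to 69 counts per library and stood at 1.21, 1.11 and 1.24 CPM in cocaine IP, at 1.13, 1.76 and 0.634 CPM in yoked IP, at 0.368, 1.67 and 0.791 CPM in saline IP, at 2.05 CPM in unbound RNA and at 1.14 CPM in input RNA. The 3 IP groups overlapped for both genes. Neither gene has introns in RefSeq, so their levels can be set side by side per length, here over RefSeq spans of 1652 bases for Ndn and 4662 for Magel2. GENCODE gives Ndn 3694 exonic bases, which would lower its values per kilobase. Ndn was at 55.9 to 114.8 CPM per kilobase in IP RNA and at 42.8 in the unbound library, and Magel2 at 0.079 to 0.378 CPM per kilobase in IP RNA and at 0.439 in the unbound library. Mkrn3, another paternally read gene without introns beside them, was at 0.0618 to 0.445 CPM per kilobase in IP RNA.

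**Figure D1:**
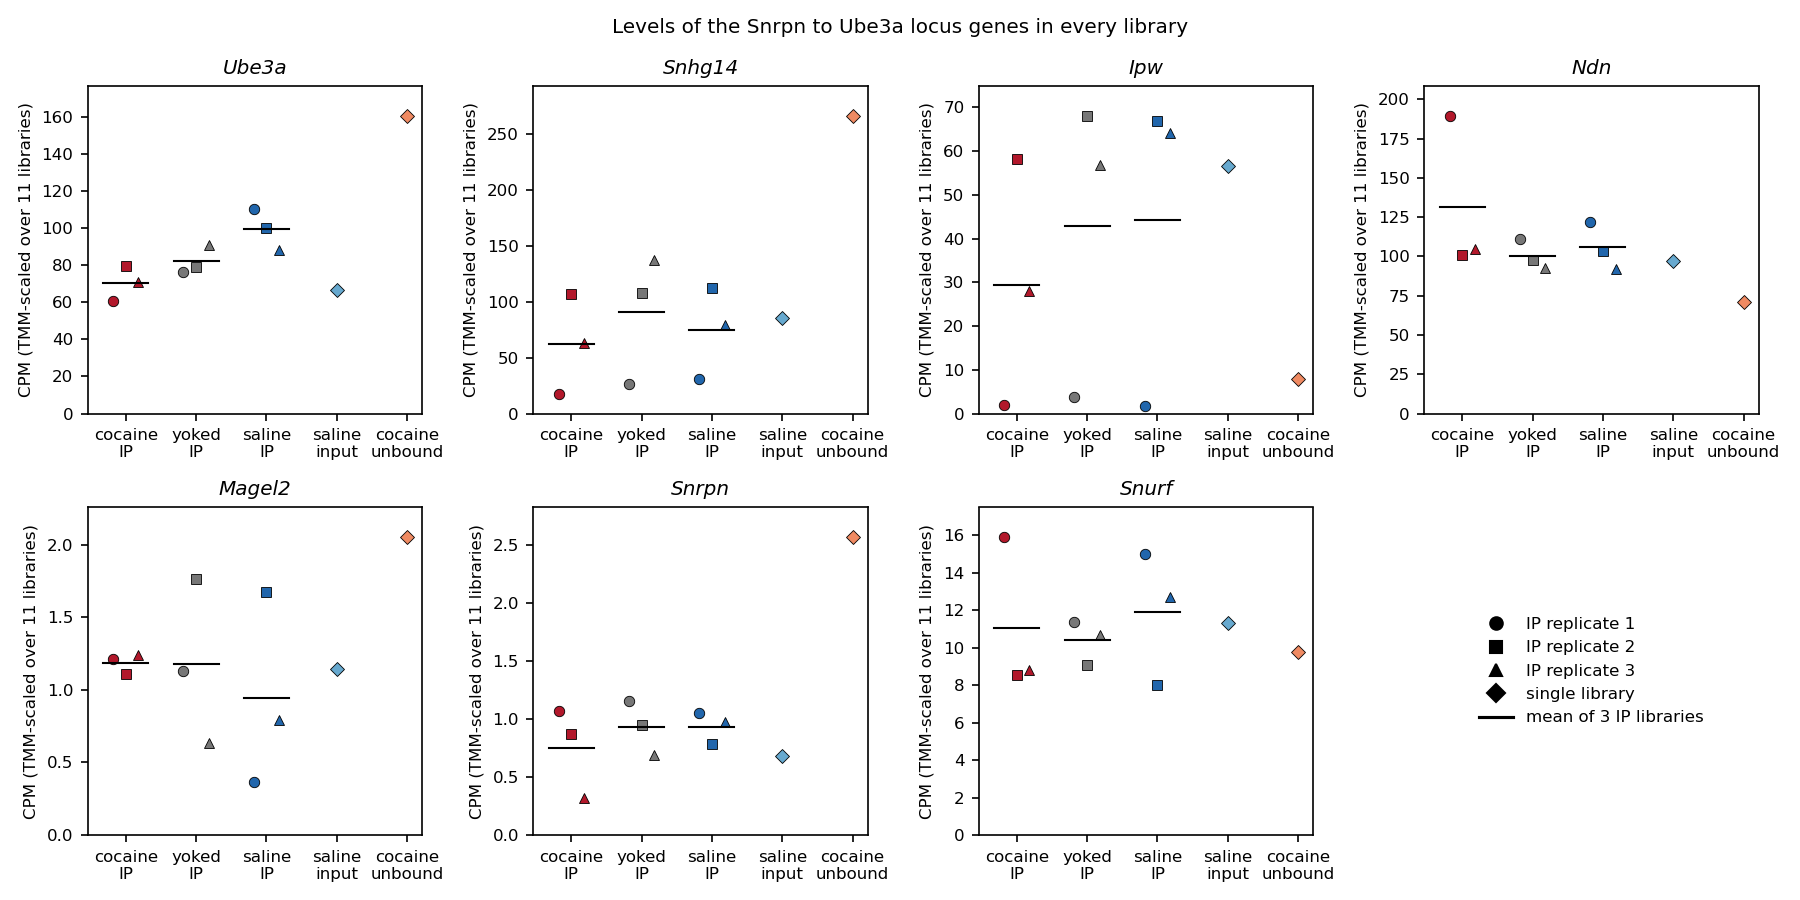
Levels in CPM (TMM-scaled over 11 libraries) of Ube3a, Snhg14, Ipw, Ndn, Magel2, Snrpn and Snurf; each symbol is a library, its shape gives the replicate number, and lines mark the mean of 3 IP libraries. The cocaine unbound library is the highest for Ube3a (160.4 CPM), Snhg14 (266.4 CPM), Magel2 (2.05 CPM) and Snrpn (2.57 CPM), while Snhg14 and Ipw are lowest within each IP group in the library numbered 1.

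For cocaine against saline self-administration, 0 of the 5 genes passed the test over all genes. Ube3a averaged 70.5 ± 9.48 CPM in cocaine IP and 99.4 ± 11 CPM in saline IP (SD, n = 3 each). Its log2 fold change was −0.48 ± 0.16 (SE), with an edgeR quasi-likelihood p of 0.0172 and a Benjamini-Hochberg adjusted p of 1. The cocaine library was below the saline library under each of the 3 replicate numbers, which follows from the separation of the 2 groups and adds nothing to it. Without the 3 libraries numbered 1 the log2 fold change of Ube3a was −0.31 (edgeR adjusted p = 0.889). Snhg14 averaged 62.5 ± 44.5 CPM in cocaine IP and 74.4 ± 40.8 CPM in saline IP, with a log2 fold change of −0.24 ± 0.74. Ndn averaged 131.7 ± 50.2 CPM in cocaine IP and 105.7 ± 14.9 CPM in saline IP, with a log2 fold change of 0.33 ± 0.26, which was −0.02 without cocaine replicate 1. That of Snrpn was −0.29 ± 0.48 and that of Magel2 0.35 ± 0.57, and edgeR's adjusted p was 1 for each of these 4 genes. Over all 16417 genes tested, edgeR called 0, or 0% (adjusted p under 0.05), DESeq2 called 0 too, and 168 genes had an unadjusted edgeR p under 0.05.

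The layer 5 markers, which follow the tagged cells, were at a median log2 fold change of −0.17 for cocaine against saline, with 9 of 10 below 0, 0 called and a median of 0.03 over all genes tested. Their summed levels were 1205.6, 688.1 and 625.9 CPM in cocaine IP and 1351.4, 722.0 and 806.3 CPM in saline IP. All 8 oligodendrocyte markers were above 0, with a median of 0.28, and their summed levels were 635.1 to 1659.6 CPM in cocaine IP and 543.2 to 1524.8 CPM in saline IP. All 8 inhibitory interneuron markers were above 0 too (median 0.31), as were 7 of 8 astrocyte (0.22) and 7 of 8 microglia markers (0.20). Of 8 endothelial and mural markers, 7 were below 0 (−0.49). Cortical excitatory (−0.05), striatal projection (−0.02) and hypothalamic markers (0.05) went both ways. No marker of these lists was called, and their part in the Ube3a value was not tested.

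Yoked mice against saline mice gave smaller values for Ube3a, at 82.1 ± 7.72 CPM in yoked IP and 99.4 ± 11 CPM in saline IP (SD, n = 3 each). The log2 fold change was −0.28 ± 0.16 (SE), with an edgeR p of 0.124 and an adjusted p of 1. Snhg14 averaged 90.6 ± 57.2 CPM in yoked IP and 74.4 ± 40.8 CPM in saline IP, with a log2 fold change of 0.28 ± 0.74. Those of Snrpn (0.00 ± 0.47), Ndn (−0.07 ± 0.26) and Magel2 (0.32 ± 0.57) were within 1 SE of 0. No gene of the 5 was called, and over all genes edgeR and DESeq2 called 0 (0%), with 66 at an unadjusted edgeR p under 0.05. All 10 layer 5 markers were below 0 (median log2 −0.18, 0 called), with summed levels of 1145.6, 623.2 and 719.3 CPM in yoked IP, and their part in the Ube3a value was not tested.

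Between cocaine and yoked libraries, the log2 fold change of Ube3a was −0.20 ± 0.16 (SE), that of Snhg14 −0.52 ± 0.74 and that of Ndn 0.41 ± 0.26, each with an edgeR adjusted p of 0.972. Snrpn (−0.29 ± 0.48) and Magel2 (0.03 ± 0.57) did not pass the test either. Over all genes 0 (0%) were called by edgeR and 0 by DESeq2, and 182 had an unadjusted edgeR p under 0.05. Each of the 3 comparisons shares a group with the other two, so the values are not independent.

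**Figure D2:**
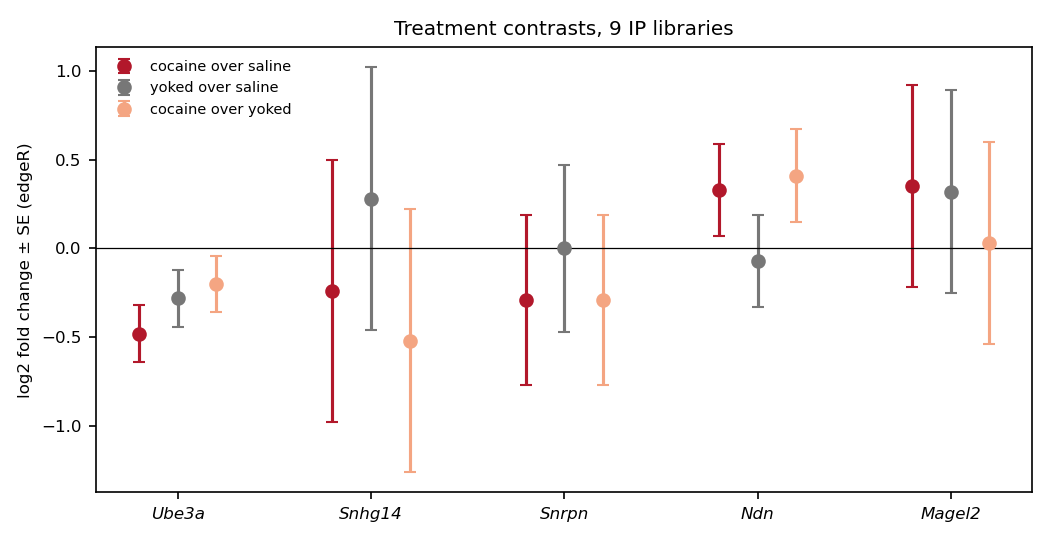
log2 fold changes with SE from edgeR for the 3 comparisons of IP groups (9 libraries), by gene. Ube3a lies below 0 in each comparison, at −0.48, −0.28 and −0.20, with narrow error bars, while the bars of Snhg14, Snrpn and Magel2 cross 0 in each; none of the 5 genes passed the test over all genes.

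Partners and relatives were read from lists of their own. For cocaine against saline, 16 of 21 ubiquitin ligase partners and relatives of Ube3a were below 0 (median log2 −0.08) with 0 called, among them Herc2, a ligase that binds Ube3a protein and lies in the same chromosome region, at −0.25 ± 0.14 (SE). Arc, a synaptic protein, was the highest at 0.43 ± 0.34. Of 12 other genes for proteins of small nuclear ribonucleoproteins, the particles to which SmN belongs, 11 were above 0 (median 0.28) with 0 called; the list holds Sm ring and U1 genes and, in Snrpa1 and Snrpb2, U2 genes. Snrpb, the near copy of Snrpn that encodes SmB, stood at 65.6, 21.3 and 24.4 CPM in cocaine IP and at 32.7, 19.1 and 21.1 CPM in saline IP. Snrpd2 stood at 56.4, 14.9 and 18.3 CPM in cocaine IP and at 26.1, 14.6 and 16.1 CPM in saline IP. For both genes cocaine replicate 1 stood far above the other 5 libraries, and the remaining cocaine libraries lay within the saline range. Of 13 MAGE family members and partners of Magel2, 10 were above 0 (median 0.17), 0 called. Vps29 of the retromer was at 206.9, 75.9 and 82.3 CPM in cocaine IP and at 126.7, 68.7 and 74.2 CPM in saline IP, with cocaine replicate 1 again apart.

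Imprinted genes outside the region and the neighbours within it showed no called gene either. Of 39 imprinted genes of other regions tested, 27 were below 0 for cocaine against saline (median −0.09), and of 16 neighbours 11 were below 0 (median −0.11). Atp10a, a lipid transporter gene next to Ube3a, stood at 1.19, 2.04 and 1.09 CPM in cocaine IP and at 2.85, 1.96 and 1.45 CPM in saline IP. Mkrn3, which encodes a ring finger protein, had 6 to 43 counts per library and stood at 0.583, 0.642 and 1.14 CPM in cocaine IP and at 0.465, 0.835 and 0.158 CPM in saline IP. The groups overlapped for both genes.

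The ratio of Snhg14 to Ube3a counts within a library needs no scaling between libraries. It was 0.291, 1.34 and 0.885 in cocaine IP, 0.351, 1.36 and 1.51 in yoked IP, 0.285, 1.12 and 0.902 in saline IP, 1.66 in unbound RNA and 1.29 in input RNA. Within each IP group the library numbered 1 was lowest, and the groups overlapped. The mean log2 ratio was −0.51 ± 1.14 in cocaine IP, −0.16 ± 1.17 in yoked IP and −0.60 ± 1.06 in saline IP (SD, n = 3 each). Exact two-sided permutation tests gave p = 0.8 for cocaine against saline, 0.5 for yoked against saline and 0.5 for cocaine against yoked, where 3 libraries against 3 cannot go below 0.1. Under each of the 3 replicate numbers, the ratio was higher in yoked than in saline IP and lower in cocaine than in yoked IP, while cocaine was above saline under 2 of the 3. Ipw counts were 0.111, 0.544 and 0.446 of the Snhg14 counts in cocaine IP, 0.141, 0.633 and 0.414 in yoked IP, 0.0545, 0.596 and 0.808 in saline IP, 0.0293 in unbound RNA and 0.662 in input RNA. The ratio was lowest in the unbound library, which also had the highest share of reads over several genes (7.34%). The RefSeq span of Ipw lies within the span of Snhg14 in both GENCODE and RefSeq. Under an annotation that is not stated, reads over both could be left out or given to either. The part of this in the ratio was not tested.

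**Figure D3:**
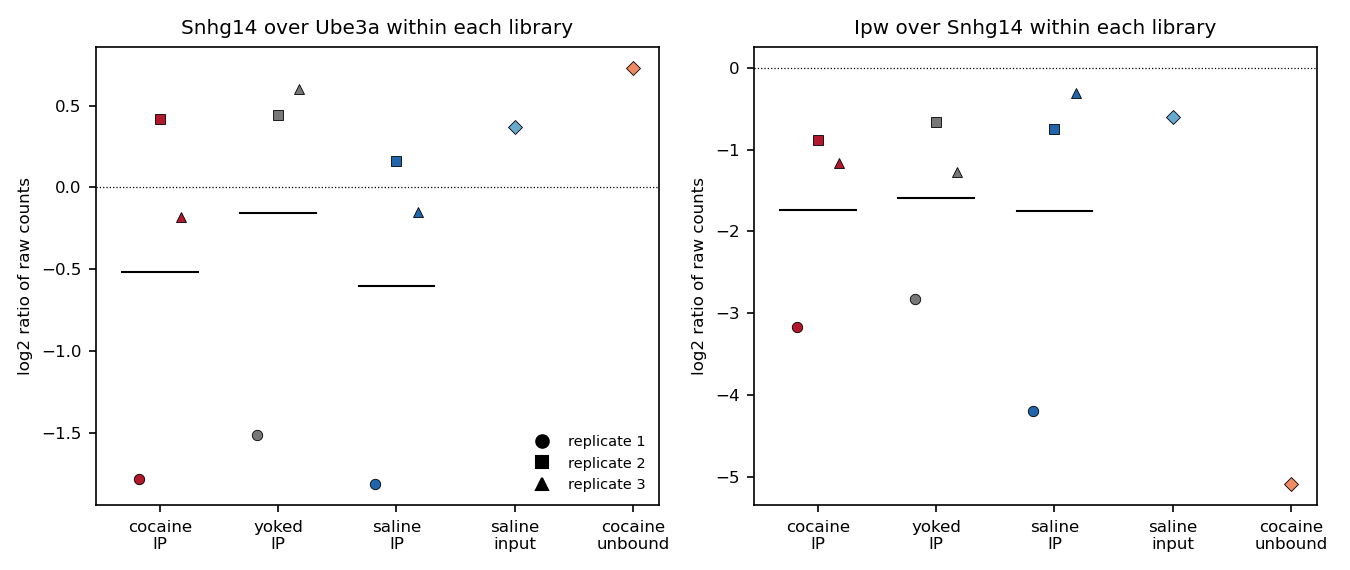
log2 ratios of raw counts within each library, Snhg14 over Ube3a on the left and Ipw over Snhg14 on the right, with lines at the mean of 3 IP libraries. The libraries numbered 1 lie lowest of each IP group in both panels, and the unbound library is highest on the left (0.73) and lowest on the right (−5.09).

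Cocaine IP over the cocaine unbound library sets the pulled-down RNA against the RNA left behind. Summed levels of the layer 5 markers were 1205.6, 688.1 and 625.9 CPM in cocaine IP, 619.5 CPM in unbound RNA and 653.9 CPM in saline input RNA. Replicates 2 and 3 thus lay near both references in this sum. The median log2 ratio of these markers over unbound RNA was 1.23, 0.77 and 0.39 in replicates 1, 2 and 3. The unbound library also had its own lane, the fewest gene counts and the highest share of reads over several genes (7.34%). The part of these differences in the ratios was not tested. Ratios were taken for genes that averaged 1 CPM or more over the 4 libraries, and all 5 genes passed this filter. Ube3a was lower in IP, with log2 ratios of −1.47, −1.08 and −1.23 in cocaine replicates 1, 2 and 3 (mean −1.26 ± 0.20, SD, n = 3). Snhg14 had −3.98, −1.39 and −2.14 (mean −2.50 ± 1.33), and Snrpn −1.29, −1.56 and −2.85 (mean −1.90 ± 0.83). These 3 genes were at least 2-fold lower in all 3 IP libraries. Snrpn averaged under 1 CPM in cocaine IP (0.754) and passed the filter only through the unbound library, so its place among genes lower in IP was favoured by the filter. Magel2 fell just short of that limit, with −0.80, −0.92 and −0.74. Ndn lay on the other side, with 1.35, 0.44 and 0.51 (mean 0.77 ± 0.51). Of 13527 genes, 2.21% met the 2-fold limit on the lower side in all 3 libraries and 0.399% on the higher side, and the median log2 ratio was 0.05. Since earlier results of this fraction were known when the genes were chosen, and there is 1 unbound library, no test was made and nothing is read from the count of 3 in 5.

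Among the neighbours, noncoding A330076H08Rik and A230057D06Rik were also at least 2-fold lower in all 3 cocaine IP libraries, with mean log2 ratios of −2.93 ± 0.67 and −1.83 ± 0.46 (SD, n = 3). They stood at 0.923 to 2.74 and 1.13 to 2.68 CPM in the 10 other libraries, and at 11.2 and 6.38 CPM in the unbound library. Herc2 (−0.30 ± 0.17) was lower by less than 2-fold. Ipw had −2.03, 2.82 and 1.78, so its direction depended on the replicate. Among imprinted genes of other regions, the noncoding Meg3 was the lowest of those that passed the filter, with −5.64, −1.17 and −1.67. The abundant nuclear RNA Malat1 had −6.95, −1.62 and −3.01. Of 9 listed nuclear noncoding RNAs that passed the filter, Malat1 and Meg3 among them, 6 were below 0 in all 3 libraries. Over all 13527 genes, 3477 were below 0 in all 3. Mirg, counted in the 6, stood at 0.607, 0.875 and 0.689 CPM in cocaine IP and at 2.14 CPM in unbound RNA. It passed the filter only through the unbound library, so its place was favoured by the filter. None of the 9 was above 0 in all 3, and the direction of the rest depended on the replicate. Neat1, for example, was below 0 in replicate 1 and above 0 in replicates 2 and 3. Layer 5 markers had a median of 0.82, with 7 of 10 above 0 in all 3 libraries. The marker Bcl11b was below 0 in all 3, at −0.89, −0.72 and −0.80. Over all 13527 genes, 4300 were above 0 in all 3. The part of the layer 5 markers, and that of the nuclear RNAs, in the values of the region was not tested.

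Saline IP over the saline input gave another order. Ube3a was above the input in all 3 libraries, with log2 ratios of 0.73, 0.61 and 0.40 (mean 0.58 ± 0.17, SD, n = 3). Over all 13478 genes that passed the filter, 2553 were above the input in all 3. Snhg14 had −1.45, 0.41 and −0.12, and Ndn 0.32, 0.10 and −0.09. Both spanned 0. Snrpn (0.58, 0.20 and 0.48) and Magel2 (−1.52, 0.54 and −0.52) were below the filter of 1 CPM, and 0 of the 3 genes that passed were 2-fold different in all 3 libraries. Of 13478 genes, 0.0742% met the 2-fold limit on the higher side in all 3 libraries and 0.0445% on the lower side. Ipw had −5.02 in replicate 1 and 0.25 and 0.17 in replicates 2 and 3. The nuclear noncoding RNAs had medians of −3.69, 0.03 and 0.07 in the same replicates, and the layer 5 markers 1.02, 0.07 and 0.26. Ube3a thus lay above the input in saline IP and below the unbound library in cocaine IP, 2 comparisons that differ in treatment and in the kind of reference fraction, so their difference was not tested.

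**Figure D4:**
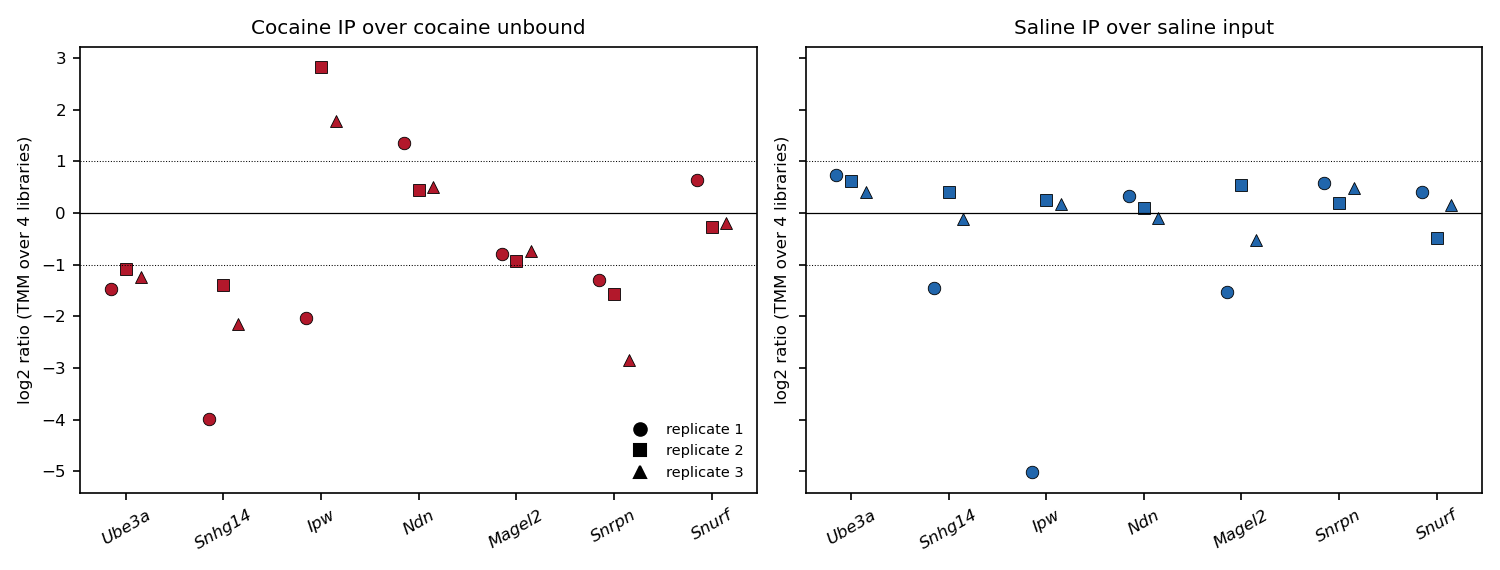
log2 ratios of each IP library over the single unbound library (left, cocaine) and over the single input library (right, saline), after TMM scaling over 4 libraries; dotted lines mark 2-fold. Ube3a, Snhg14 and Snrpn lie below the lower dotted line in all 3 cocaine libraries, and Ndn lies above 0 in all 3; on the right Ube3a lies above 0 in all 3, and the replicate 1 symbols of Snhg14, Ipw and Magel2 lie lowest.

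The libraries numbered 1 differed from those numbered 2 or 3 in the IP RNA of all groups. Snhg14 averaged 25.3 ± 6.93 CPM in the 3 libraries numbered 1 and 101.1 ± 26.2 CPM in the 6 numbered 2 or 3 (SD), a log2 difference of −2.0 ± 0.18 (SE) with the group in the model. Ipw averaged 2.48 ± 1.12 CPM in the libraries numbered 1 and 57.1 ± 14.9 CPM in the others (−4.54 ± 0.24). Ndn was higher in the libraries numbered 1, at 140.9 ± 42.5 CPM against 98.6 ± 5.28 CPM (0.48 ± 0.12, and 0.24 without the cocaine libraries), and so was Snurf, at 14.1 ± 2.39 CPM against 9.64 ± 1.75 CPM (0.56 ± 0.15). Ube3a was at 82.3 ± 25.2 CPM in the libraries numbered 1 and 84.8 ± 10.3 CPM in the others (−0.08 ± 0.12). Snrpn (0.55 ± 0.37) and Magel2 (−0.45 ± 0.40) had differences under 2 SE. The split was known when the genes were chosen, so no call is given for them. Over all genes tested, edgeR put 27.6% higher and 27.7% lower in the libraries numbered 1 (adjusted p under 0.05).

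Other lists differed by replicate number too, and are given by direction and median alone. All 10 nuclear noncoding RNAs were lower in the libraries numbered 1 (median log2 −3.75), and their summed level was 212 to 423.8 CPM in the libraries numbered 1 and 2432.3 to 7501.8 CPM in the others. Of 10 layer 5 markers, 9 were above 0 (median 0.78), and of 8 astrocyte markers 7 were below 0 (median −1.07). Of the 12 small nuclear ribonucleoprotein genes, 11 were above 0 (median 0.72), as were 12 of the 13 MAGE family genes and partners of Magel2 (median 0.51). Of the 16 neighbours, 10 were above 0 (median 0.08), including Gabra5, a receptor subunit gene (0.71 ± 0.09). Of 39 imprinted genes of other regions, 22 were below 0 (median −0.21), the lowest being the noncoding Kcnq1ot1 (−4.87 ± 0.26) and Meg3 (−3.88 ± 0.17). The median over all genes tested was 0.01. A difference in the pull-down, fewer cells of a type and less RNA per cell cannot be told apart in these libraries. The part of these lists in the values of Snhg14 and Ndn was not tested.

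Genes with the most similar profiles were found by the root mean square distance between log2 CPM profiles over the 11 libraries, each centred on its mean, among genes averaging 10 CPM or more. Nearest to Ube3a were Ccdc112 (0.10), Gcc2 (0.11) and Tmf1 (0.12), of which Gcc2 and Tmf1 encode Golgi coiled-coil proteins. Nearest to Snhg14 were Qk (0.27), which encodes the RNA-binding protein quaking, Gjc3 (0.31), a glial connexin, and 2610203C20Rik (0.32). Ndn was nearest to Psmd9 (0.03), a proteasome assembly factor, and to Tsen15 and Marc2 (0.08 each). Snrpn was nearest to Gas5 (0.31) and Magel2 to Hspb8 (0.35), at distances that their few counts make imprecise. The SD of the profile was 0.39 for Ube3a, 0.35 for Ndn, 0.67 for Snrpn and for Magel2, and 1.15 for Snhg14. Of 8798 genes, 99.1% had a smaller SD than Snhg14, 69.9% a smaller one than Ube3a and 61.3% a smaller one than Ndn. The points share libraries, and the libraries fall apart by replicate number, so no correlation is given.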

How the data were processed

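RNA from 9 IP libraries, 1 input and 1 unbound library was sequenced. The authors deposited unnormalized counts of reads for each gene symbol. STAR 2.0.0e, HTSeq and the build mm10 are named in the submitters' processing notes; the HTSeq version, annotation and strand setting are not stated there. Reads aligned to several places (28.3% to 47.0% of entries), outside genes (6.28% to 15.5%) or over several genes (1.56% to 7.34%) stayed out of library sizes, as did all 6 entries that name no gene. Rn45s, the ribosomal RNA precursor, made up 3.62% to 8% of gene counts and was kept.

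The genes and lists were chosen with earlier results of these data known. Named are the 5 genes, the listed neighbours, at most 4 genes of any other list in a comparison and 3 nearest profiles per gene. The values of 1 neighbour are not reported here. Treatments were tested with edgeR 4.0.16 (R 4.3.3; TMM, filterByExpr, robust quasi-likelihood, Benjamini-Hochberg over 16417 genes at 0.05, 3 group means over 9 IP libraries), with DESeq2 1.42.0 as an alternative. Fraction ratios used TMM over 4 libraries, a mean of at least 1 CPM and a prior count of 2. The scripts were tested on simulated data. Same-numbered libraries of different groups deviated together in every pair (correlation of deviations 0.38 to 0.80), so the numbers were taken to pair the libraries; the labels give only the number. Libraries numbered 2 and 3 of different groups also correlated, at 0.37 to 0.62, so beyond number 1 the pairing is not distinct. Sequences are from RefSeq, GRCm38.p6. Intervals cover counting error only, since counts without molecular identifiers include PCR copies.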

Additional observations from a re-analysis of the deposited data

How the results depend on the processing

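The counts of 0 called genes held under all alternatives run for the 3 treatment comparisons (RLE scaling, no filter, DESeq2, the replicate block, without Rn45s, without the 3 libraries numbered 1, and each library left out). Ube3a for cocaine against saline was below 0 in all 12 alternatives, with adjusted p from 0.377 to 1. With the replicate block the pairing changed no call: Ube3a for cocaine against saline was at −0.49 (edgeR adjusted p = 0.377), and Snhg14 for cocaine against yoked at −0.57 (edgeR adjusted p = 0.152). The Snhg14 over Ube3a ratio with the block gave exact p = 0.5 for cocaine against saline and 0.25 for the other two, the smallest that 3 pairs allow.

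Small fold changes turned round when libraries were left out; the cause was not tested. For cocaine against saline, Snhg14 became 0.16 without saline replicate 2 and 0.20 without cocaine replicate 1 (range −0.89 to 0.20), Snrpn 0.05 without cocaine replicate 3 (−0.64 to 0.05), Ndn −0.02 without cocaine replicate 1 (−0.02 to 0.47) and Magel2 −0.04 without saline replicate 1 (−0.04 to 1.03). Without the 3 libraries numbered 1, Magel2 became −0.05 for cocaine against saline, −0.03 for yoked against saline and −0.02 for cocaine against yoked. For yoked against saline, Snhg14 ranged from −0.14 to 0.71 (−0.09 without saline replicate 1, −0.14 without yoked replicate 3), Ndn from −0.16 to 0.04 and Magel2 from −0.10 to 1.02 (−0.06 without saline replicate 1, −0.10 without yoked replicate 2). For cocaine against yoked, Snrpn ranged from −0.64 to 0.06 and Magel2 from −0.27 to 0.44 (−0.02 without cocaine replicate 3, −0.27 without yoked replicate 3). Ube3a for number 1 against 2 and 3 was 0.01 without the cocaine libraries. The log2 difference in Snhg14 over Ube3a ranged from −0.52 to 0.72 for cocaine against saline (−0.38 without cocaine replicate 2, −0.08 without cocaine replicate 3, −0.52 without saline replicate 1), from −0.16 to 1.12 for yoked against saline and from −1.03 to 0.28 for cocaine against yoked (0.28 without cocaine replicate 1, 0.02 without yoked replicate 3).

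Counts of genes in the fraction ratios depend on the filter and on how many libraries must pass. With no level filter, an alternative chosen after seeing the data, 157 genes were higher and 1169 lower for cocaine IP over unbound, and 156 higher and 476 lower for saline IP over input. With 1 IP library left out, 123 to 239 were higher and 305 to 459 lower over unbound, and 16 to 27 higher and 10 to 41 lower over input. Snrpn and Magel2 had at most 54 and 69 counts per library, which makes their values imprecise. Whether reads of Snrpn were left out in counting was not tested.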
